A study of Mus musculus with 12 samples.

Results

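The 6 genes Myh6, Myh7, Myl2, Myl3, Myl4 and Myl7, which encode the myosin heavy and light chains of the heart, were taken by name from the 26190 genes of the table and were described in atria and ventricles of the embryonic heart and in the corresponding parts of heart organoids (HOs). All 6 were found, and all 6 passed the filter for low counts in every comparison. Atria and ventricles were surgically separated from hearts of C57BL/6 mouse embryos at E11.5 (E11.5H), with 3 libraries of each. Atrium-like and ventricle-like parts were cut from HOs on day 13 of culture, again with 3 libraries of each. HOs are beating structures that form from embryoid bodies of mouse embryonic stem (ES) cells on a gel of laminin and entactin with FGF4, and both parts were therefore exposed to FGF4 and, later in the culture, to BIO (a Wnt activator), BMP4 and LIF. The labels give C57BL/6 for the HOs, whereas the methods name several ES cell lines, from C57BL/6 and from an F1 hybrid with JF1, without saying which line gave which library. The methods describe biological triplicates of HOs that were each dissected into both parts. The parts may thus share HOs, as may the chambers share hearts, but no label ties an atrium-like library to the ventricle-like library of the same HO, and the tests treat all libraries as independent.

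The sarcomeric myosin motor is a hexamer of a pair of heavy chains, each carrying an essential and a regulatory light chain on its neck. In the mouse heart Myh6 encodes the fast α heavy chain and Myh7 the slow β heavy chain, Myl7 and Myl2 encode the atrial and the ventricular regulatory chain (MLC2a and MLC2v), and Myl4 and Myl3 encode the atrial and the ventricular essential chain. The early heart tube expresses several of these genes together. As chambers form they become divided, with mainly Myh6, Myl7 and Myl4 in the atria and Myh7, Myl2 and Myl3 in the ventricles. Myh6 replaces Myh7 in the mouse ventricle around birth.

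In GRCm38, Myh6 lies on the minus strand of chromosome 14 from 54941921 to 54966607, and Myh7 follows it on the same strand from 54970686 to 54994626, 4078 bases away. Myl7 is on the minus strand of chromosome 11 from 5896637 to 5898782, Myl2 on the plus strand of chromosome 5 from 122100951 to 122106854, Myl4 on the plus strand of chromosome 11 from 104550663 to 104587216, and Myl3 on the plus strand of chromosome 9 from 110763678 to 110769802. The sequences directly upstream are shown for the heavy chain pair, neighboring genes whose proportions set the ventricles apart from every other group, and for Myl7 and Myl3, which share a motif. Each run holds the 250 bases before the start (RefSeq, GRCm38.p6), 5′ to 3′ on the strand of the gene, and capitals mark the motifs CATTCC, the core bound by TEAD factors, and the CArG box, bound by serum response factor, on either strand.
Myh6, chr14:54966608-54966857, minus strand: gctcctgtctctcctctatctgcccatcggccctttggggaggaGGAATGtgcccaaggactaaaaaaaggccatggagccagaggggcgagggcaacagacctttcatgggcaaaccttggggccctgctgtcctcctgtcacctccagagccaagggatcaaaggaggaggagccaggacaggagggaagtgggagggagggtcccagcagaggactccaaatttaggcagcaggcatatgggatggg
Myh7, chr14:54994627-54994876, minus strand: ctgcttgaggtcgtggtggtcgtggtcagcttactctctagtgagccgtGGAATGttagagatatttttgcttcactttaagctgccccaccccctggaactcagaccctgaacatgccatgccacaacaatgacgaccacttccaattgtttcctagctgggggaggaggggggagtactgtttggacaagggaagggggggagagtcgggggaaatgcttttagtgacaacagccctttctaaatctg
Myl7, chr11:5898783-5899032, minus strand: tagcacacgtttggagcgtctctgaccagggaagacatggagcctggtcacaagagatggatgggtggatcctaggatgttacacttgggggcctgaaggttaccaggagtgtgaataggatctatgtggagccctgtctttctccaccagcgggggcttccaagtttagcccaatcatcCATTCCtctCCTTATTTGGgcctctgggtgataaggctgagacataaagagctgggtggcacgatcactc
Myl3, chr9:110763428-110763677, plus strand: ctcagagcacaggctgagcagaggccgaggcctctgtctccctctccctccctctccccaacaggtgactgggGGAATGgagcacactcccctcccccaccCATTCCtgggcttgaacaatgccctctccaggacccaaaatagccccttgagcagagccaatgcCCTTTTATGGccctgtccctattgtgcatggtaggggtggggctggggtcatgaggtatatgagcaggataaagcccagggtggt
Of the 5 members with a window at the start used in the table, 4 held CATTCC or its reverse complement, which is found in 12.6% of all 32851 windows of this length, and 2 (Myl7 and Myl3) held a CArG box, found in 1.47%. The Myl4 window held neither. The letters TATAAA (12.4% of windows), AGATAA (9.99%), GGTGTGA (3.33%) and a MEF2 site (2.92%) were in none of the 5 windows. No motif overlapped another. These are matches of letters only.

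Introns of both heavy chain genes carry a miRNA, and their mature forms are shown because they belong to the same seed family. The seed (bases 2 to 8) is in capitals.
mmu-miR-208a-3p, in Myh6, chr14:54949072-54949093, minus strand: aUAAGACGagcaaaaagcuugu
mmu-miR-208b-3p, in Myh7, chr14:54975710-54975731, minus strand: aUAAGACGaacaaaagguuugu
They were identical at 19 of 22 positions, the seed included. The rows of Mir208a and Mir208b were at 0 in all 12 libraries. This allows up to 0.0982 to 0.125 CPM (counts scaled to library total) from the 3 counts that a count of 0 allows. The libraries were not described as small RNA libraries, so these rows do not show whether the miRNAs of 22 bases were absent.

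The libraries held 23971258 to 30540993 fragments assigned to genes. Levels are given as FPKM (fragments scaled by transcript length and by library total) as deposited, which allows levels of different genes to be set side by side. Fold changes come from the fragment counts, with edgeR's quasi-likelihood test, and a gene was called at a Benjamini-Hochberg adjusted p under 0.05 over all genes tested and an absolute log2 fold change over 1. All 12 counts of Myh6 and all 12 of Myh7 were not whole numbers, as were 7 to 11 of the 12 counts of each light chain. Where reads map to several similar genes, as Myh6 and Myh7 are, the split between them is uncertain. Whether strand was used in counting is not given in the sources used here, and Myh7 overlaps the antisense RNA Mhrt and Myl4 overlaps Gm11665 on the opposite strand. Mhrt held at most 60.4 counts in any library.

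The cardiomyocyte content of the libraries differed, and the levels of the members have to be read beside it. The summed FPKM of 16 cardiomyocyte genes without myosins was 14233 to 16613 in atria and 16524 to 16730 in ventricles, but only 277 to 1088 in the atrium-like and 1694 to 4045 in the ventricle-like libraries. The 6 members together took 2.10 to 2.26% of all fragments in atria, 2.37 to 2.60% in ventricles, 0.0379 to 0.133% in atrium-like parts and 0.161 to 0.550% in ventricle-like parts. The lowest share, 0.0379% in atrium-like replicate 1, had a Wilson 95% interval of 0.0371 to 0.0387%, which covers counting error only. In bulk samples fewer cardiomyocytes and less RNA per cardiomyocyte cannot be told apart.

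Genes of other cell types were present in HOs beside the cardiomyocyte genes. The summed FPKM of 8 hepatocyte and visceral endoderm genes reached 673 to 13792 in the atrium-like libraries and 110 to 5882 in the ventricle-like libraries, against 13.8 to 17.5 in E11.5H, and that of 6 gut epithelium genes was 1003 to 3380, 580 to 2190 and 37.7 to 57.6. Skeletal muscle, which uses some of the same chains, was marked in replicate 2 of both HO parts, with 153 and 149.8 summed FPKM of 12 genes and with Myod1, the master factor of skeletal muscle, at 10.2 and 19.3 FPKM. The other 4 HO libraries summed to 4.82 to 16.6 FPKM and had no Myod1 above 0. In E11.5H the sum was 47.8 to 74.8 FPKM, with Myod1 at 0 in the ventricles and at 0.0610 to 3.42 FPKM in the atria. Several members are also made in skeletal muscle, among them the slow chains Myh7 and Myl3, and Tnnt2 is also made in embryonic skeletal muscle. Results are therefore also given without these 2 HO libraries, an alternative chosen after seeing the data.

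**Figure D1:**
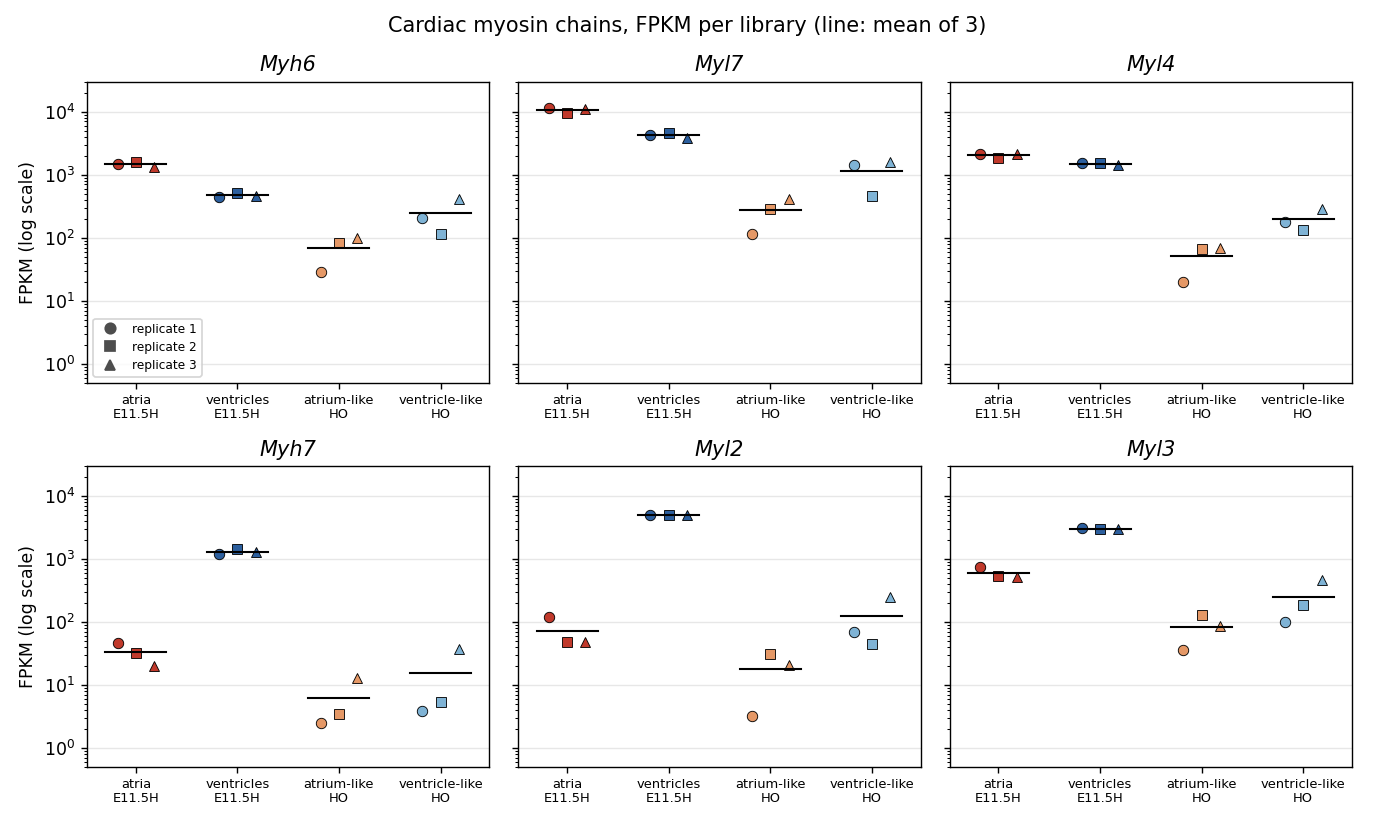
FPKM of the 6 cardiac myosin genes in each library on a logarithmic axis, by group; symbols are replicates and lines are means of 3 libraries. In E11.5H Myh7, Myl2 and Myl3 were higher in ventricles and Myh6, Myl7 and Myl4 higher in atria, while in HOs the mean of all 6 was higher in ventricle-like parts.

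The first question was how the chains were divided between the chambers of the embryonic heart. In E11.5H, Myh6 and Myl7 were higher in atria, and Myh7, Myl2 and Myl3 were lower there. Thus 5 of the 6 members passed both thresholds, 2 higher and 3 lower, while 4.90% of all 14536 genes tested did (2.92% higher and 1.97% lower). The FPKM of atria and ventricles did not overlap for any of the 6, as for 33.1% of all genes tested (21.3% with atria above and 11.8% with atria below).

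Myh6 was at 1484, 1589 and 1328 FPKM in atria and at 445, 504 and 461 FPKM in ventricles. The groups were well separated, and every atrial library was above every ventricular library. The log2 fold change of Myh6 was 1.57 (SE 0.073, edgeR adjusted p = 1.30e-06). Myh7 went the other way, with 46.8, 32.1 and 20.5 FPKM in atria and 1185, 1455 and 1278 FPKM in ventricles. Its log2 fold change was -5.37 (SE 0.28, edgeR adjusted p = 1.82e-06), so the difference in the β heavy chain was much larger than that in the α chain.

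Among the regulatory chains, Myl7 was the most abundant member in atria, at 11545, 9495 and 11168 FPKM, and was still at 4330, 4540 and 3786 FPKM in ventricles. Its log2 fold change was 1.28 (SE 0.087, edgeR adjusted p = 1.01e-05). Myl2 was at 120.3, 47.7 and 47.9 FPKM in atria and at 4954, 4954 and 5037 FPKM in ventricles. The ventricular libraries agreed closely, whereas atria replicate 1 held the most Myl2, Myh7 and Myl3 of the atrial libraries. The log2 fold change of Myl2 was -6.18 (SE 0.37, edgeR adjusted p = 3.91e-06).

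The essential chains were divided less sharply. Myl3 was at 752, 532 and 511 FPKM in atria and 3155, 3040 and 2986 FPKM in ventricles, a log2 fold change of -2.42 (SE 0.14, edgeR adjusted p = 3.00e-06). Myl4 was at 2173, 1869 and 2145 FPKM in atria and 1549, 1525 and 1433 FPKM in ventricles. Its groups did not overlap, but the log2 fold change of 0.39 (SE 0.072, edgeR adjusted p = 0.0053) was below the fold limit, so it was not called. Tnnt2, cardiac troponin T, had a log2 fold change of -0.13 (SE 0.074, edgeR adjusted p = 0.313). When the HO libraries were put into the same fit, so that their wider spread was shared, 1 of the 6 members, Myl2, was called between the chambers. Over all genes 30 were called in that fit, against 712 in the fit of E11.5H alone.

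The second question was whether the parts of HOs differed in the same chains. No member was called, as 0% of the 15703 genes tested were, and the adjusted p of the members was 0.750 to 0.795. Before adjustment 889 genes had an edgeR p under 0.05, and the DESeq2 Wald test called 56 genes and 0 members. All 6 fitted log2 fold changes were negative, that is lower in atrium-like parts, from -2.67 for Myl2 to -1.15 for Myh7, and that of Tnnt2 was -1.59. The median was -1.76 over the 6 members and -0.03 over all genes tested. Without both HO libraries that held Myod1, again 0 members were called.

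Myh6 was at 28.8, 82.5 and 98.3 FPKM in atrium-like and at 203, 117 and 417 FPKM in ventricle-like parts. The highest atrium-like value was below the lowest ventricle-like value, the reverse of the order in E11.5H, and the log2 fold change was -1.69 (SE 0.60, edgeR adjusted p = 0.750). Myl7 had 115, 291 and 415 FPKM in atrium-like and 1434, 463 and 1595 FPKM in ventricle-like parts, and Myl4 had 19.7, 66.6 and 68.3 against 178, 131 and 288 FPKM. For both of these atrial chains the groups did not overlap and the order was again opposite to that of E11.5H. The fold changes were -1.96 for Myl7 (SE 0.61) and -1.83 for Myl4 (SE 0.50) on the log2 scale.

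Of the ventricular chains, Myl2 had 3.25, 31.3 and 20.5 FPKM in atrium-like and 70.5, 45.8 and 254 FPKM in ventricle-like parts, with no overlap. Its log2 fold change was -2.67 (SE 0.94). Myh7 had 2.52, 3.52 and 12.9 against 3.82, 5.46 and 37.9 FPKM, and Myl3 had 35.8, 130.0 and 87.5 against 99.4, 189.9 and 467 FPKM. The parts overlapped for Myh7 and Myl3. For Myh7 the higher value in ventricle-like parts came from 1 library, and without ventricle-like replicate 3 its log2 fold change was 0.62. The same omission moved Myl2 to -1.59, Myl3 to -0.66 and Myh6 to -1.08. Thus 4 of the 6 members, Myh6, Myl7, Myl4 and Myl2, were lower in atrium-like parts without overlap, as were 9.25% of all genes tested (13.3% in either direction), and Tnnt2 was too, at 30.6, 97.2 and 135 against 218, 164 and 486 FPKM.

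The interaction of chamber and tissue tested whether the chamber difference of a gene itself differed between HOs and E11.5H. It passed for none of the members and for 0.152% of the 16494 genes tested, 0.0243% with a positive and 0.127% with a negative estimate (1928 genes at an unadjusted p under 0.05). The estimates were -3.26 for Myh6 (edgeR adjusted p = 0.139), -3.24 for Myl7 (0.147), -2.21 for Myl4 (0.205), 4.20 for Myh7 (0.261), 3.50 for Myl2 (0.287) and 0.95 for Myl3 (0.628) on the log2 scale. The 3 atrial chains thus had negative and the 3 ventricular chains positive estimates, and that of Tnnt2 was -1.47. The number called rested on single libraries. Without ventricle-like replicate 2, or without both HO libraries that held Myod1, Myh6 and Myl7 passed (adjusted p 0.0426 and 0.029, and 0.028 and 0.0221), and without ventricle-like replicate 3 Myh7 passed (0.0347). The DESeq2 Wald test called 5 members, all but Myl3. These settings also called more of all genes than the 25 of the main fit. They called 42 without ventricle-like replicate 2, 61 without ventricle-like replicate 3, 276 without both HO libraries that held Myod1 and 438 with DESeq2.

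The third question was how far each HO part was from the chamber it is named after. Between atrium-like parts and atria, 5 of 6 members fell and none rose, while 24.8% of the 15418 genes tested were called and 8.81% fell. The largest falls were those of the 3 atrial chains. Myl4 changed by -5.20 (SE 0.48, edgeR adjusted p = 0.00202), Myl7 by -5.16 (SE 0.49, edgeR adjusted p = 0.00211) and Myh6 by -4.26 (SE 0.45, edgeR adjusted p = 0.0027) on the log2 scale. Tnnt2 fell by 3.25, less than these 3. Myl3 fell by 2.71 (SE 0.42, edgeR adjusted p = 0.00687) and Myh7 by 2.23 (SE 0.68, edgeR adjusted p = 0.0488), and Myl2 had -1.89 (SE 0.76, edgeR adjusted p = 0.105) and did not pass, other than with the DESeq2 Wald test (adjusted p 0.0284). The call of Myh7 did not survive leaving out any of the 3 atria libraries (adjusted p 0.147, 0.115 and 0.083 without replicates 1, 2 and 3) or atrium-like replicate 1 (0.0906) or 2 (0.0719), nor fitting all 12 libraries together (0.0678).

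Between ventricle-like parts and ventricles, 5 of 6 members also fell and none rose, while 18.9% of the 15094 genes tested were called, 7.35% lower and 11.6% higher. Here the ventricular chains had the largest falls. Myh7 changed by -6.47 (SE 1.08, edgeR adjusted p = 0.00947), Myl2 by -5.42 (SE 0.75, edgeR adjusted p = 0.00543) and Myl3 by -3.70 (SE 0.58, edgeR adjusted p = 0.00789) on the log2 scale. Myl4 fell by 3.01 (SE 0.31, edgeR adjusted p = 0.00256) and Myl7 by 1.94 (SE 0.46, edgeR adjusted p = 0.0258), and Tnnt2 fell by 1.81. Myh6 had -1.03 (SE 0.45, edgeR adjusted p = 0.133), and without ventricle-like replicate 3 it passed, at -1.67 (0.00875). Myl7 no longer passed without ventricles replicate 1, 2 or 3 (adjusted p 0.0871, 0.0918 and 0.0803) or without ventricle-like replicate 1 (0.0615). In both comparisons no HO library reached the FPKM of any library of its chamber for any of the 6. The same was true of 30.3% of all genes tested in atrium-like parts and 21.1% in ventricle-like parts, and the groups were apart in either direction for 54.4% and 50.7% (29.6% higher in ventricle-like parts and 24.1% in atrium-like parts).

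The falls are measured against the bulk of all genes. When libraries were instead scaled to equal expression of the 16 cardiomyocyte genes, the median over all genes moved to 3.88 between atrium-like parts and atria and to 2.60 between ventricle-like parts and ventricles on the log2 scale. Of the genes called, 14104 of 14205 and 13053 of 13144 were then higher in HOs, against 2462 of 3821 and 1749 of 2859 before. Subtracting these medians mostly takes the scaling off again, so the members were bound to stay negative and this is no separate support. Less the median, they ranged from -5.54 for Myl4 to -2.32 for Myl2 in the first comparison. In the second they ranged from -7.13 for Myh7 to -1.44 for Myh6. Against the cardiomyocyte genes themselves, Myl4 and Myl7 remained called lower in atrium-like parts, at -1.66 and -1.60 (edgeR adjusted p 0.0131 and 0.0218), and Myh6 was no longer called, at -0.71 (0.264). Myl2 was then called higher there, at 1.56 (0.031), and Myh7 and Myl3 turned to 1.28 (0.0573) and 0.89 (0.123) without passing. In ventricle-like parts Myh7, Myl2 and Myl3 remained called lower, at -4.53, -3.38 and -1.47, and Myl4 was no longer called, at -0.71 (edgeR adjusted p 0.0839). Myh6 was then called higher, at 1.16 (0.0155), and Myl7 turned to 0.30 (0.503).

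**Figure D2:**
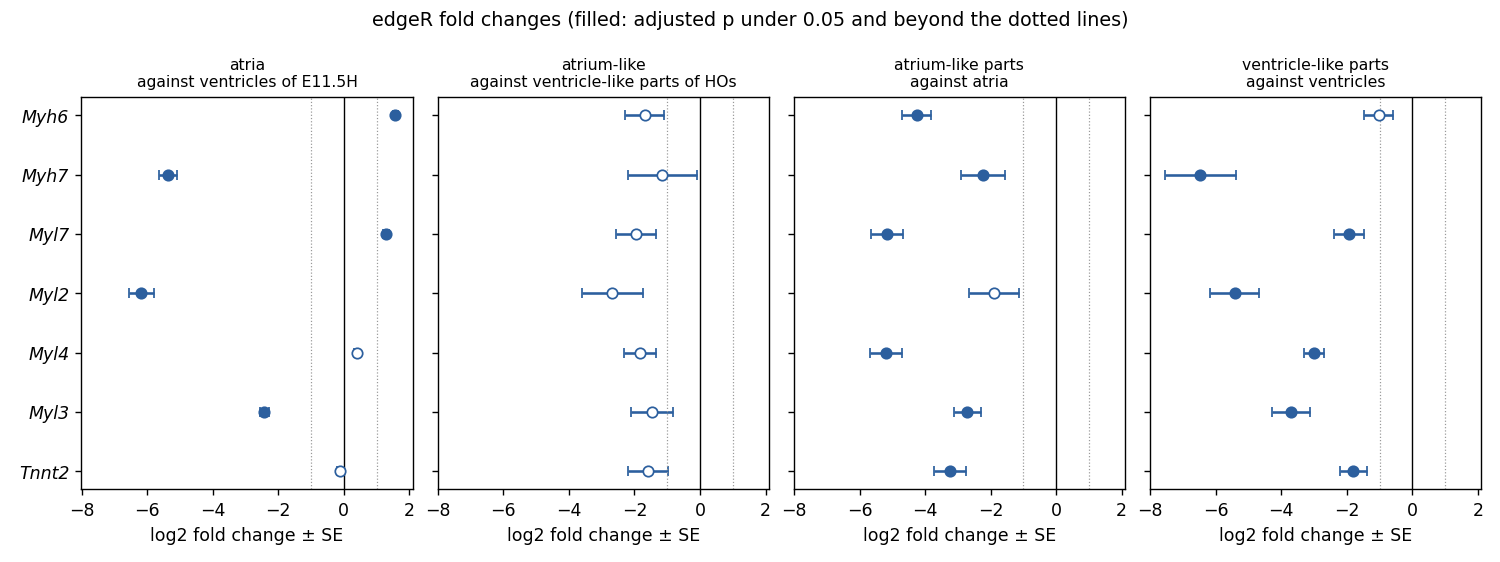
Log2 fold changes with standard errors of the 6 members and Tnnt2 in the 4 comparisons of groups (edgeR, 3 against 3 libraries); filled points passed the adjusted p and the fold limit, which is drawn as dotted lines at -1 and 1. Between the chambers of E11.5H the members lie on both sides of 0, and in the other comparisons all lie below 0.

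The proportions of the isoforms within a library do not depend on its total. They are shares of transcripts, not of protein chains, and the share of Myh6 carries the uncertainty of the split given above. Myh6 made up 96.9, 98.0 and 98.5% of the summed FPKM of Myh6 and Myh7 in atria and 27.3, 25.7 and 26.5% in ventricles. In HOs it made up 92.0, 95.9 and 88.4% in atrium-like and 98.2, 95.5 and 91.7% in ventricle-like parts. Both HO parts thus had mostly Myh6, as the atria did, and the ventricle-like parts did not overlap the ventricles.

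The log2 ratio of Myh6 to Myh7 was 5.54 ± 0.52 in atria, -1.47 ± 0.058 in ventricles, 3.66 ± 0.82 in atrium-like and 4.54 ± 1.14 in ventricle-like libraries (SD with n = 3 in each). It differed by 7.02 between the chambers, and by 6.01 between ventricle-like parts and ventricles, with no overlap. Each of these had p = 0.1 in an exact two-sided permutation test, the smallest that 3 against 3 allow, and 0.133 adjusted over the 12 tests of the 3 ratios in 4 pairs of groups. Between the HO parts the difference was -0.87 and the libraries overlapped (exact permutation p = 0.5).

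For the regulatory chains, Myl7 made up 99.0, 99.5 and 99.6% of the Myl7 and Myl2 sum in atria and 46.6, 47.8 and 42.9% in ventricles. In HOs its share was 97.3, 90.3 and 95.3% in atrium-like and 95.3, 91.0 and 86.3% in ventricle-like parts. The HO parts overlapped each other, and each lay outside the range of its chamber. The log2 ratio of Myl7 to Myl2 was 7.36 ± 0.68 in atria, -0.24 ± 0.15 in ventricles, 4.23 ± 0.97 in atrium-like and 3.45 ± 0.85 in ventricle-like libraries (SD with n = 3 in each). The difference was 7.61 between the chambers and 0.79 between the HO parts (exact permutation p = 0.1 and 0.5).

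For the essential chains, Myl4 made up 74.3, 77.8 and 80.8% of the Myl4 and Myl3 sum in atria and 32.9, 33.4 and 32.4% in ventricles. Its share was 35.5, 33.9 and 43.8% in atrium-like and 64.1, 40.7 and 38.1% in ventricle-like parts. This pair behaved differently from the other pairs, since the HO libraries, other than ventricle-like replicate 1, lay nearer to the ventricles than to the atria. The log2 ratio of Myl4 to Myl3 was 1.80 ± 0.27 in atria, -1.03 ± 0.032 in ventricles, -0.73 ± 0.32 in atrium-like and -0.13 ± 0.85 in ventricle-like libraries (SD with n = 3 in each). The difference was -2.53 between atrium-like parts and atria and 0.89 between ventricle-like parts and ventricles, both with no overlap (exact permutation p = 0.1 each, 0.133 adjusted).

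When tissue was permuted within chamber over all 12 libraries (400 arrangements, smallest p 0.005), HOs differed from E11.5H by 2.06 in the ratio of Myh6 to Myh7 (exact permutation p = 0.13), 0.28 for Myl7 to Myl2 (p = 0.785) and -0.82 for Myl4 to Myl3 (p = 0.19), with 0.285, 0.785 and 0.285 after adjustment over the 3 ratios. For each ratio the atrium-like parts were below the atria and the ventricle-like parts above the ventricles, and this average over chambers takes their opposite signs together.

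**Figure D3:**
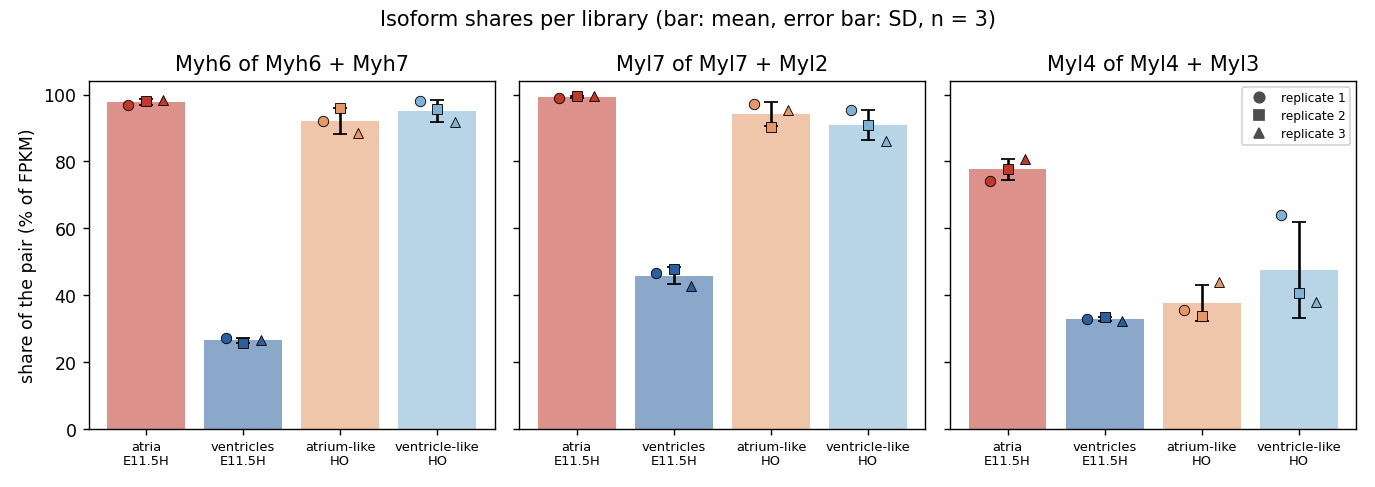
Share of Myh6, Myl7 and Myl4 in the FPKM sum of their pair for each library, in percent; bars are means, error bars SD over 3 libraries and symbols replicates. Atria and ventricles of E11.5H are far apart in all 3 pairs, whereas both HO parts overlap in each.

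The levels were next expressed relative to Tnnt2, so that each library was measured against its own cardiomyocyte RNA. Among HO libraries part of the spread went with Tnnt2, most of it for Myh6 in both parts and for Myl7 and Myl4 in atrium-like parts. The SD of log2 Myh6 FPKM was 0.96 in atrium-like and 0.92 in ventricle-like parts, and that of its log2 level relative to Tnnt2 was 0.19 and 0.20. For Myl4 the SD changed from 1.02 and 0.57 to 0.23 and 0.26, and for Myl7 from 0.96 and 0.99 to 0.18 and 0.65. More was left for the ventricular chains, with 0.75 and 1.08 for Myh7, 0.82 and 0.47 for Myl2 and 0.56 and 0.71 for Myl3. The exception was Myl2 in ventricle-like parts, which kept less than Myl7. In HOs Myh6 was at 0.941, 0.848 and 0.727 times Tnnt2 in atrium-like parts and 0.933, 0.712 and 0.859 times Tnnt2 in ventricle-like parts. These values overlapped and lay between those of atria, 1.41 to 1.89, and ventricles, 0.474 to 0.527.

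Of the atrial light chains, Myl4 was low for the amount of Tnnt2 in both HO parts. It was at 2.22 to 2.29 times Tnnt2 in atria and 1.47 to 1.69 in ventricles, but at 0.505 to 0.685 in the atrium-like and 0.592 to 0.815 in the ventricle-like libraries. On this scale all HO libraries were below all E11.5H libraries for 0.540% of the 16494 genes tested, and above them for 63.9%. Myl4 was the only member with all 6 HO libraries below all 6 libraries of E11.5H. With tissue permuted within chamber the difference was -1.51 on the log2 scale (exact permutation p = 0.005, the smallest that 400 arrangements allow, and 0.03 adjusted over the 6 members). This counts both parts of an HO as independent, and whole HOs against whole hearts, 3 against 3, could not go below 0.1. Relative to the mean of the 16 cardiomyocyte genes it was -1.17 (0.03 adjusted), and relative to Actn2, the sarcomeric α-actinin, it was -0.50 and did not pass (0.27 adjusted), with ventricle-like parts 0.10 above the ventricles. Without both HO libraries that held Myod1 it was -1.59 (exact permutation p = 0.01, the smallest that 100 arrangements allow, and 0.06 adjusted). A fall beyond that of Tnnt2 was not particular to Myl4. In atrium-like parts the log2 fold changes of Mybpc3 and Unc45b, -4.57 and -4.92, were below that of Tnnt2, -3.25. In ventricle-like parts they were -3.31 and -2.95, against -1.81 for Tnnt2. Mylk3 fell less than Tnnt2 in atrium-like parts, at -3.11.

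Myl7 was at 11.3 to 12.1 times Tnnt2 in atria, 3.89 to 4.74 in ventricles, 2.99 to 3.75 in the atrium-like and 2.83 to 6.58 in the ventricle-like libraries. The atrium-like parts were far below the atria, and the ventricle-like parts overlapped the ventricles. With tissue permuted within chamber the difference of -1.01 had an exact permutation p of 0.04, and 0.12 adjusted. Without ventricle-like replicate 1, which had the highest ratio among HO libraries, it was -1.20 (0.015 adjusted), and relative to Actn2 it was 0.00022.

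The ventricular chains were low for the amount of Tnnt2 in ventricle-like parts. Myh7 was at 1.29 to 1.52 times Tnnt2 in ventricles and at 0.0175 to 0.0780 in ventricle-like parts, a log2 difference of -5.26. Myl2 was at 5.17 to 5.40 and 0.279 to 0.523, a log2 difference of -3.86. Myl3 was at 3.07 to 3.44 and 0.456 to 1.16, a log2 difference of -2.01. None of the 3 overlapped, and each had an exact permutation p of 0.1 (0.171 adjusted over 24 tests). With Myl4, 4 of the 6 members were below the ventricles without overlap on this scale, as were 1.52% of all genes tested, and Myh6 was above them, as were 77.2%.

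In atrium-like parts the same ventricular chains overlapped the atria, and the other 3 members were below the atria without overlap. Of all genes tested 1.36% were below and 88.0% above the atria without overlap on this scale. Relative to Tnnt2, Myh7 was at 0.0362 to 0.0955 against 0.0217 to 0.0492, Myl2 at 0.106 to 0.322 against 0.0507 to 0.126 and Myl3 at 0.647 to 1.34 against 0.542 to 0.791. The highest Myl3 level relative to Tnnt2 within each HO part, 1.34 and 1.16, was in replicate 2, the libraries that held Myod1. Myh7, the other slow chain, was not highest there. It was at 0.0362 in atrium-like replicate 2, the lowest of that part. In ventricle-like replicate 2 it was at 0.0333, below the 0.0780 of replicate 3. Between the HO parts the levels relative to Tnnt2 overlapped for all 6 members, with exact permutation p of 0.2 to 0.9. Of the 15703 genes tested, 44.2% were higher and 0.172% lower in atrium-like parts without overlap on this scale.

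**Figure D4:**
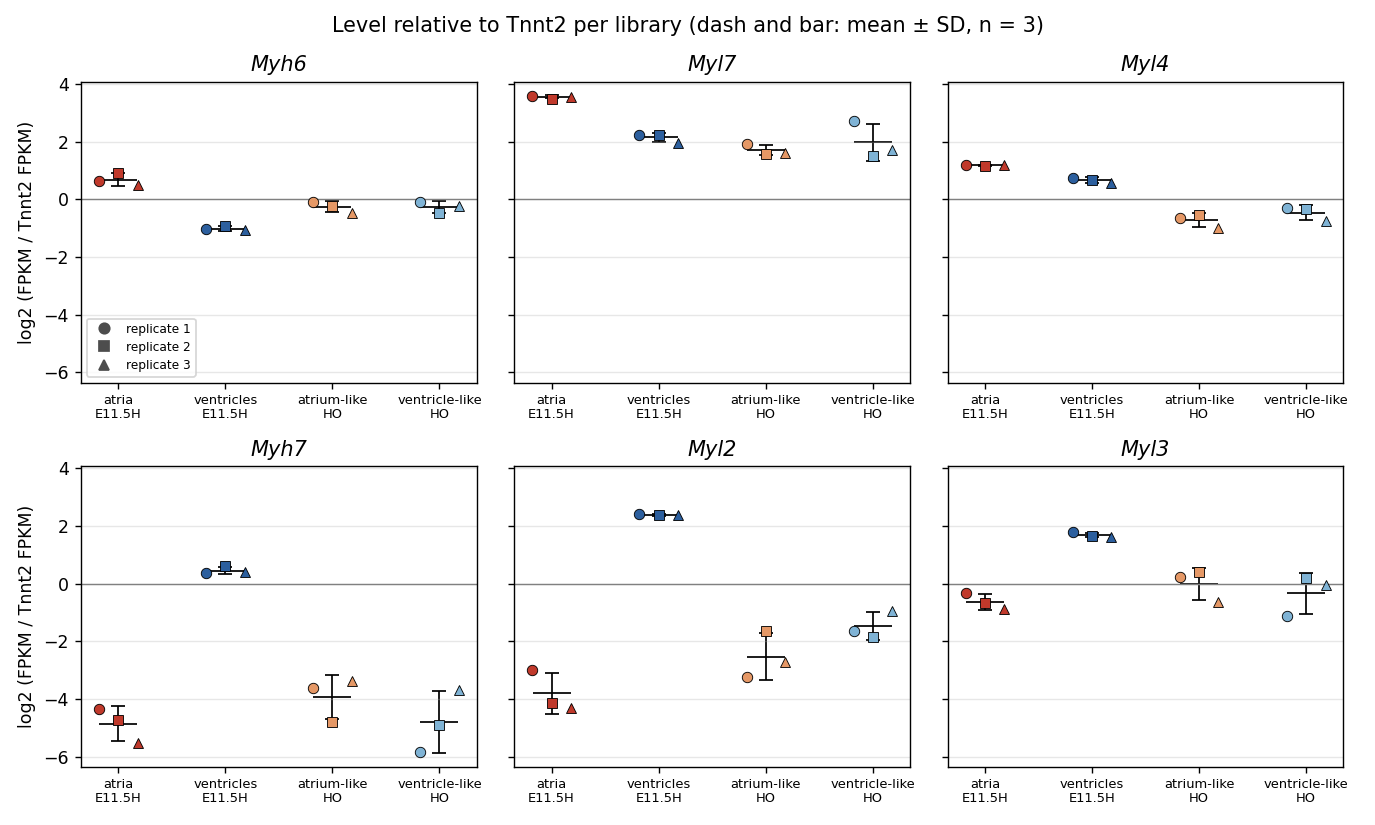
Log2 ratio of the FPKM of each member to that of Tnnt2 in each library; symbols are replicates and dashes with bars are mean and SD (n = 3). Myl4 is lower in all HO libraries than in all E11.5H libraries, and Myh7, Myl2 and Myl3 of the ventricle-like parts are far below the ventricles.

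The balance between heavy and light chain transcripts also varied. The regulatory chains summed to 5.89 to 8.32 times the FPKM of the heavy chains in atria, 4.84 to 5.69 in ventricles, 3.74 to 3.92 in the atrium-like and 4.07 to 7.26 in the ventricle-like libraries. The atrium-like libraries lay below all others. The essential chains summed to 1.48 to 1.97 times the heavy chains in atria, 2.33 to 2.88 in ventricles, 1.40 to 2.29 in the atrium-like and 1.34 to 2.62 in the ventricle-like libraries, with both HO parts overlapping the atria and the ventricle-like parts also overlapping the ventricles.

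Across groups, the order of the levels of Myh6, Myl7 and Myl4 was atria, ventricles, ventricle-like parts and atrium-like parts, with no overlap between neighbors. For Myh7 the order of the means was ventricles, atria, ventricle-like and atrium-like parts, where the last 3 overlapped as neighbors. For Myl2 the ventricle-like parts, at 124 ± 114 FPKM (SD, n = 3), and the atria, at 71.9 ± 41.8 FPKM, overlapped, below the ventricles and above the atrium-like parts. For Myl3 the order was ventricles, atria, ventricle-like and atrium-like parts, and only the HO parts overlapped.

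Genes whose log2 expression was most like that of each member over the 12 libraries were sought among 16488 other genes, as a description of points that share their groups and their cardiomyocyte content. Myl4 was most like Rbpms2 (Pearson r = 0.994), Tnnc1, which encodes cardiac troponin C (0.992), and Unc45b, a myosin chaperone (0.992). Myl2 was most like Pln, phospholamban (0.991), Mb, myoglobin (0.985), and Ybx3 (0.954). Myl3 was most like Ccnd3 (0.985), Plcg2 (0.972) and Hk1 (0.969), and Myl7 most like Nxt1 (0.984), Ccdc141 (0.984) and Cog5 (0.981). The heavy chains had Tbx5, a cardiac transcription factor (0.970), Rgs12 (0.970) and Taf6 (0.968) next to Myh6, and Oxa1l (0.972), Mpped2 (0.955) and Lmcd1 (0.949) next to Myh7.

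The cardiac chains were also set beside 39 other myosin chains, regulators and folding factors, of which 38 were in the table. In E11.5H 27 could be tested, of which 3 were higher and 2 lower in atria than in ventricles. Of all genes tested 2.92% were higher and 1.97% lower. Myl1, an essential chain best known from fast skeletal muscle, was at 874, 690 and 832 FPKM in atria and 223, 215 and 195 FPKM in ventricles, a level in atria above that of Myl3 (log2 fold change 1.86, edgeR adjusted p = 1.82e-06). Mybphl, a myosin-binding protein of atrial muscle, was higher by 1.90, and Myh11, the smooth muscle heavy chain, was at 1.96, 3.83 and 2.31 FPKM in atria against 0.198 FPKM in ventricles replicate 1 and 0 in the others. Myh7b, a slow-type heavy chain, was lower in atria by -1.31. Mybpc1, a myosin-binding protein of skeletal muscle, was at 0 in all 3 atria and at 3.93, 4.46 and 1.08 FPKM in ventricles.

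In the comparisons of HO parts with chambers, 9 of 27 tested fell and 4 rose in atrium-like parts, beside 8.81% of all genes that fell and 2462 of 15418 that rose. In ventricle-like parts 9 of 27 fell and 2 rose, beside 7.35% and 11.6% of all genes. Among those that fell in both were the thick filament protein Mybpc3 (log2 fold change -4.57 and -3.31), the myosin chaperone Unc45b (-4.92 and -2.95), the myosin methyltransferase Smyd1 (-4.47 and -2.71), the cardiac light chain kinase Mylk3 (-3.11 and -2.89), Myl1 (-5.40 and -2.05) and Myl9, a regulatory chain of smooth muscle (-2.99 and -1.43). Ppp1r12b and Ppp1r14c, subunit and inhibitor of myosin phosphatase, fell in both as well. Mybphl fell in atrium-like parts (-4.54) and the non-muscle heavy chain Myh10 in ventricle-like parts (-1.89).

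The genes that rose were no larger a share than among all genes. Myl12b, a non-muscle regulatory chain, rose by 1.61 and 1.26, and Mylk, the smooth muscle light chain kinase, by 2.17 and 2.25. Unc45a, the general form of the chaperone, rose in atrium-like parts by 1.41. Myh14, a non-muscle heavy chain of epithelia, was at 53.1, 6.70 and 23.3 FPKM in atrium-like parts and at most 0.00936 FPKM in atria, beside the gut epithelium genes given above. Between the HO parts 0 of 29 tested passed, and in the interaction 0 of 32, beside 0% and 0.152% of all genes tested.

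Of the skeletal heavy chains, Myh3 and Myh8 were highest in a pair of HO libraries. Myh3, the embryonic form, was counted at 812.5 and 747 fragments in replicate 2 of the atrium-like and the ventricle-like parts and at no more than 5 in the other HO libraries, with 193 in atria replicate 3. Myh8, the perinatal form, was at 1.62 and 0.725 FPKM in the same HO libraries and at most 0.0546 FPKM in the other HO libraries. Mylpf, the fast skeletal regulatory chain, was at 37.6 and 37.4 FPKM there and at 1.66 to 3.02 FPKM in the other HO libraries. In E11.5H Mylpf was at 11.2 to 18.5 FPKM. The HO libraries that held Myod1 thus also held skeletal myosin chains. Myl2 and Myl3 had their highest atrium-like FPKM in replicate 2, but in ventricle-like replicate 2 Myl2 was the lowest of its group and Myl3 was below replicate 3. Myh7 was at 3.52 and 5.46 FPKM in replicate 2 of the atrium-like and the ventricle-like parts, below replicate 3 of each, at 12.9 and 37.9 FPKM. The skeletal heavy chains Myh1, Myh2, Myh4 and Myh13 reached at most 0.299 FPKM in any library, and Myh15 was at 0.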

How the data were processed

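RNA of 12 samples was sequenced, 3 for each chamber of E11.5H and 3 for each part of HOs. The authors aligned reads with STAR to mouse build GRCm38/mm10 and deposited expected counts (fragments per gene, 23.8% of them not whole) and FPKM values per gene; tool versions, annotation release, counting tool and strand setting are not given in the sources used here. FPKM as deposited divides counts by transcript width and 1 total per library, 1.14 to 1.21 times the sum of counts. Counts were rounded, filtered with filterByExpr (minimum count 10), scaled by TMM and tested over all genes by the quasi-likelihood method of edgeR 4.0.16 (R 4.3.3), with p-values adjusted after Benjamini and Hochberg, within each pair of groups and for the interaction of chamber and tissue. Ratios of FPKM were compared per library by exact two-sided permutation tests. DESeq2 1.42.0 and limma 3.58.1 (voom) were alternatives, with other size factors, filters, scalings, references and left-out libraries. The edgeR procedure was tested on simulated data. Plots used matplotlib 3.10.9 under Python 3.11.15. Sample groups follow the labels. Replicate numbers were not used as pairs, because deviations from the group means of same-numbered libraries did not all correlate above 0.1. This rule cannot show that the HO parts were unpaired. Their same-numbered libraries correlated by 0.04, 0.554 and 0.33, and those of different number by -0.623 to 0.385. The members and lists were chosen with earlier results of these data known. All members and Tnnt2 are named, with the listed myosin genes that passed or that encode skeletal or smooth muscle myosins, and the 3 genes most like each member (log2 CPM, prior count 0.5). Protein sequences and the promoter of Myl2 are not analysed here.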

Additional observations from a re-analysis of the deposited data

Results flagged for a closer look

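The 3 members Myh6, Myl4 and Myl7 had chamber differences of opposite direction in HOs and E11.5H with no overlap of libraries in either. For Myh6 the difference in mean log2 FPKM was -1.80 between atrium-like and ventricle-like parts and 1.64 between atria and ventricles. For Myl4 the differences were -2.07 and 0.45, and for Myl7 -2.09 and 1.35. These contrasts were picked for their opposite signs, and on this FPKM scale the difference between them was not tested. How many of all genes met the same rule was not counted. In either direction, the FPKM groups did not overlap for 33.1% of genes tested between the chambers and 13.3% between the HO parts. The edgeR interaction of chamber and tissue on counts did not pass for these genes (adjusted p 0.139 for Myh6, 0.205 for Myl4 and 0.147 for Myl7). Tnnt2 was also lower in atrium-like than in ventricle-like parts without overlap, and relative to Tnnt2 the HO parts overlapped for all 3 genes. On that scale 44.2% of all genes tested were higher and 0.172% lower in atrium-like parts without overlap.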

How the results depend on the processing

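The number of members called kept within 1.5 times its value in 41 of 46 alternatives other than leaving out 1 library, and the 5 exceptions were 1 in E11.5H with all 12 libraries in 1 fit, 3 in atrium-like parts against atria under pan-cardiomyocyte scaling, and 5 (DESeq2), 2 (that scaling) and 2 (without both HO libraries that held Myod1) in the interaction. Over all genes, counts of calls moved over 1.5 times as follows: from 712 to 30 between the chambers with all 12 libraries in 1 fit; from 0 to 1487 under that scaling and 56 with DESeq2 between the HO parts; from 3821 to 14205 (scaling) and 1662 to 5495 (1 library left out) in atrium-like parts against atria; from 2859 to 13144 and 1116 to 3725 in ventricle-like parts against ventricles; and from 25 to 438 (DESeq2), 12 (limma-voom), 14 (scaling), 276 (without the Myod1 libraries) and 2 to 216 (1 library left out) in the interaction. Between the chambers 673 of 869 genes called were higher in atria under that scaling, against 425 of 712. Leaving out 1 library gave 0 to 2 members in the interaction, 4 to 5 in atrium-like parts against atria, 4 to 6 in ventricle-like parts against ventricles, and 5 and 0 between the chambers and the HO parts. Under pan-cardiomyocyte scaling, which moved the median of all genes by 1.55 between the HO parts, log2 fold changes turned to 0.66 for Myh7 and 0.15 for Myl3 there, to 1.28, 1.56 and 0.89 for Myh7, Myl2 and Myl3 in atrium-like parts against atria, and to 1.16 and 0.30 for Myh6 and Myl7 in ventricle-like parts against ventricles. Leaving out 1 library gave -2.21 to 0.62 for Myh7 between the HO parts, the highest without ventricle-like replicate 3. The cause was not tested. With the replicate block the number of members called changed only from 5 to 4 in atrium-like parts against atria (Myh7, adjusted p 0.0791), while genes called over all became 621, 0, 2806 and 2003 in the 4 pairs and 5 in the interaction, and same-numbered HO libraries correlated by 0.04, 0.554 and 0.33, with atrium-like replicate 1 nearer to ventricle-like replicate 3 (0.385) than to its own number.

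The isoform ratios kept their direction in all 144 alternatives. Of the levels relative to Tnnt2, values between HOs and E11.5H within chamber turned to 0.91 for Myh6 and 0.32 for Myl3 and to 0.00022 for Myl7 with Actn2 as the reference, where the difference of Myl4 was -0.50, and to 0.24 for Myh6 with the 16 genes as the reference. In ventricle-like parts against ventricles Myl4 turned to 0.10 and Myl7 to 1.05 with Actn2, and Myl7 to 0.24 with the 16 genes. Between the HO parts Myh6 turned to -0.027 with the 16 genes and to -0.11 without both libraries that held Myod1, which left Myl4 at -1.59 between HOs and E11.5H. Leaving out 1 library gave -0.10 to 0.11 for Myh6, -0.073 to 0.65 for Myl3 and -0.52 to 0.094 for Myl7 between the HO parts, -0.54 to 0.070 for Myl7 in ventricle-like parts against ventricles, and -1.20 to -0.89 for Myl7 between HOs and E11.5H. Only 3 libraries per group limit every comparison, and at 23971258 fragments or more the lowest count of a member was 61.5.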
